A study of Rattus norvegicus with 26 samples.

Results

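The natural killer receptor region of rat chromosome 4 was examined as 40 features of the count tables, in rat hepatocytes before transplantation and in liver tissue after it. The members were chosen by position and by abundance: of the 57 features that lie wholly within a 3 Mb window of the chromosome, the 40 with the highest counts summed over the 16 pre-transplant libraries were kept, out of 32552 features in all. Selection by those counts used the same libraries as the comparisons before transplantation, while the tissue libraries played no part in it. The last member kept had 2 summed counts, 3 features were tied at that value and the lowest identifier was taken, the next feature below the ties had 1 count, and 11 features of the window had none. ENSRNOG00000053656, which lies in the window, had been picked in earlier work on these data for its difference between fetal cell fractions, so its levels before transplantation are given as a description, with no p-value, and it is left out of the counts of members called in sorted cells unless it is named there.

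The natural killer gene complex is a cluster of genes for lectin-like receptors, many of them carried on the surface of natural killer cells and T cells. The families known from this cluster include Klrb1, Klrd1, Klrc1, Klrk1 and the Ly49 receptors, some activating and some inhibitory, and rodents hold many near-identical Ly49 copies side by side. Cd69, an early activation marker of lymphocytes, lies in the same cluster, as do receptors of myeloid cells. The fetal liver is a site of blood cell formation, and the adult liver holds resident natural killer cells.

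The count tables give each feature an identifier and exon coordinates but no gene name, and none of the identifiers matched the 47357 genes of the RefSeq table used for names. The label could therefore not be checked against Klr or Ly49 genes, no receptor could be named, and neither the hepatocyte identity of the cells nor the presence of lymphocytes, macrophages or blood cell precursors could be checked against markers. Features are called by identifier or by the first base of their span on chromosome 4, in the coordinates of the deposited tables; the sources used here do not name the genome build. No promoter or protein sequence could be tied to a member for the same reason. The 40 members run from 162811597 to 165630118, with 31 on the minus strand and 9 on the plus strand, and their summed exon length ranged from 134 to 3894 nt, with a median of 1574.5 nt. Near-identical copies in this region can share reads, and 4 pairs of members overlap, 1 of them on opposite strands, so that single values here carry an uncertainty that the counting error does not include.

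Before transplantation, 4 groups of 4 libraries were sequenced: adult hepatocytes, and fetal hepatocytes immunopurified as LAP+, as LAP+/OC2+ or as LAP+/OC2-. LAP and OC2 are the sort labels and are not spelled out in the labels. After transplantation, laser capture gave fetal-derived colony tissue and surrounding host tissue from 5 animals, numbered 242, 243, 246, 248 and 249. The labels call the libraries biological replicates without saying which cultures, litters or animals the sorted cells came from, so a p-value before transplantation measures the spread between these libraries. Strain, age, sex, the time of transplantation and the choice of captured areas are not given in the labels used here. The sorted cells and the captured tissue were made into libraries with different kits, so no level was compared between the stages.

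Total counts ranged from 7871347 to 16874438 in the sorted cells and from 8500596 to 15875986 in the captured tissue. The LAP+/OC2+ libraries stood apart: mitochondrial features took 78.6%, 73.7%, 57.6% and 38.9% of the counts in libraries 1 to 4, against 4.11% to 10.3% in the other sorted cells, and left 1917734 to 5045098 nuclear counts. Levels are counts scaled to library size (CPM) after TMM scaling, a scaling of library sizes for composition. A count of 0 allows a level of up to 3 counts, which was 0.345 to 0.774 CPM in the LAP+/OC2+ libraries and 0.132 to 0.225 CPM in the other sorted cells, for counting error only. The host library of animal 248 had a count in 60.2% of all features, against 77.2% to 87.1% in the other 9 tissue libraries.

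A few members held nearly all of the counts. The features at 165606819, 163293724 and 162934195 together took 91.8% of the 121868 counts of the members before transplantation, and the first of them alone took 62.4%. These shares differed between groups: the first feature took 9.8% to 11.6% of the members' counts in adult libraries and 75.3% to 84.8% in LAP+/OC2- libraries, and the 3 together took 62.9% to 83.6% in LAP+/OC2+ libraries. In the sorted cells 18 members passed the filter on low counts and were tested, with at least 121 summed counts each, while the 22 others had 2 to 52 summed counts. Of the 18, the features at 163041141, 163141132 and 163628640 passed only with the LAP+/OC2+ libraries included, so they had to differ to be tested at all. Their levels in LAP+/OC2+ cells are therefore given without a p-value, and members called in LAP+/OC2+ cells are counted among the 15 others, beside the 13394 genes that pass the filter without those libraries. A member is called at an adjusted p under 0.05 in edgeR's quasi-likelihood test, with the adjustment over all 13818 genes tested.

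The 3 abundant features differed in which cells held them. ENSRNOG00000005480, at 165606819 to 165630118, was measured at 35.3, 40.8, 39.2 and 34.9 CPM in adult libraries 1 to 4. It reached 134, 242, 411 and 207 CPM in LAP+ libraries 1 to 4, 447, 367, 613 and 796 CPM in LAP+/OC2+ libraries 1 to 4, and 451, 380, 608 and 557 CPM in LAP+/OC2- libraries 1, 3, 4 and 5. Every fetal library lay above every adult library, and the 2 OC2 fractions overlapped each other. ENSRNOG00000005480 rose in LAP+/OC2- against adult cells by a log2 difference of 3.73 ± 0.32 (SE, adjusted p = 5.04e-08, edgeR), in LAP+/OC2+ cells by 3.89 ± 0.32 (adjusted p = 8.45e-09) and in LAP+ cells by 2.72 ± 0.31 (adjusted p = 1.09e-06). Between the OC2 fractions its log2 difference was 0.16 ± 0.29 (SE, adjusted p = 0.647, edgeR).

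ENSRNOG00000053362, at 163293724 to 163302858, had the opposite order. Its level was 180, 134, 220 and 200 CPM in the adult libraries, 51.8, 32.7, 57.6 and 53.2 CPM in LAP+, 37.5, 47.2, 60.3 and 62.4 CPM in LAP+/OC2- and 30.2, 22.3, 18.9 and 24.0 CPM in LAP+/OC2+. All 12 fetal libraries were below the lowest adult library, and the 4 LAP+/OC2+ libraries were below every other library. Against adult cells the level fell by a log2 difference of 1.91 in LAP+ (SE 0.21, adjusted p = 1.07e-06, edgeR), by 1.83 in LAP+/OC2- (SE 0.21, adjusted p = 1.71e-06) and by 2.95 in LAP+/OC2+ (SE 0.23, adjusted p = 3.57e-09). It also fell by 1.12 from LAP+/OC2- to LAP+/OC2+ cells (SE 0.22, adjusted p = 0.000228, edgeR) and by 1.04 from LAP+ to LAP+/OC2+ cells (SE 0.22, adjusted p = 0.000473).

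ENSRNOG00000059538, at 162934195 to 162943981, was also highest in adult cells. Its 4 adult libraries were at 122, 158, 115 and 105 CPM, and the LAP+ libraries at 86.5, 25.9, 57.7 and 62.9 CPM. The LAP+/OC2+ libraries were at 39.2, 49.8, 34.4 and 23.8 CPM, and the LAP+/OC2- libraries at 22.4, 50.3, 55.2 and 54.9 CPM. The adult libraries did not overlap any fetal library, while the 3 fetal groups overlapped one another. The fall against adult cells was 1.10 on the log2 scale in LAP+ (SE 0.33, adjusted p = 0.00788, edgeR), 1.45 in LAP+/OC2- (SE 0.33, adjusted p = 0.00114) and 1.77 in LAP+/OC2+ (SE 0.34, adjusted p = 0.000141).

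Per kb of exon, which allows features of different length to be compared within a group, the adult order was ENSRNOG00000053362 at 109 ± 21.8 CPM per kb (SD, n = 4), ENSRNOG00000059538 at 62.0 ± 11.4 and ENSRNOG00000005480 at 20.5 ± 1.59. In LAP+/OC2- cells ENSRNOG00000005480 was first at 272 ± 56.0 CPM per kb, ahead of ENSRNOG00000053362 at 30.8 ± 6.94 and ENSRNOG00000059538 at 22.7 ± 7.78, and the last 2 lay within their spread of each other. In LAP+/OC2+ cells ENSRNOG00000005480 stood at 303 ± 104 CPM per kb, while ENSRNOG00000053656 at 34.97 ± 18.1, the feature at 163112301 at 30.6 ± 14.2, ENSRNOG00000054251 at 19.1 ± 3.73 and ENSRNOG00000059538 at 18.3 ± 5.37 overlapped one another.

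**Figure D1:**
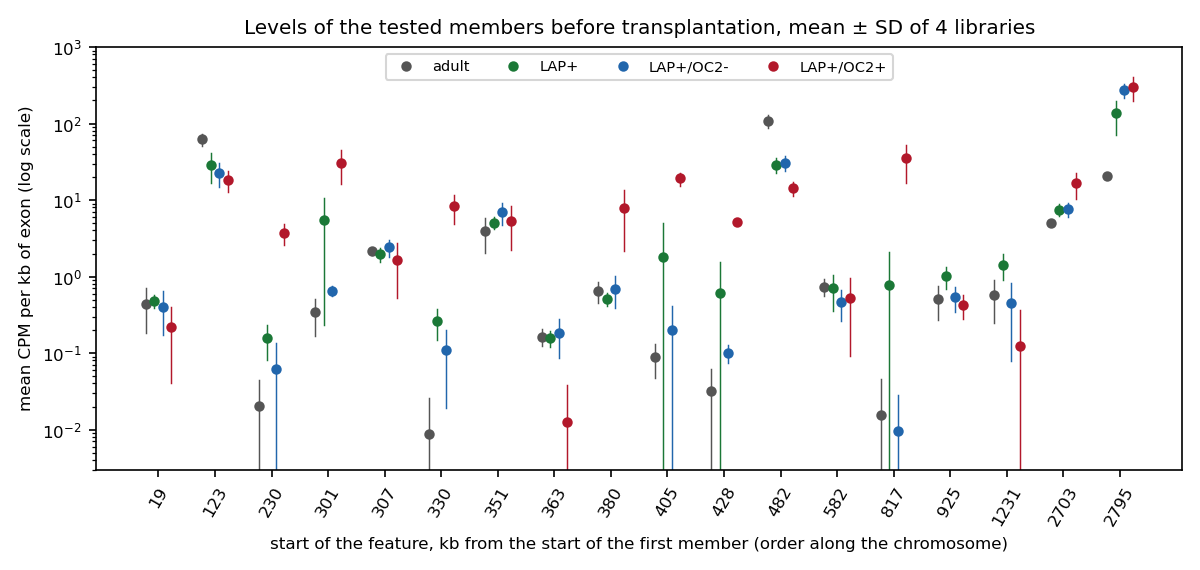
Mean level of the 18 tested members in CPM per kb of exon (log axis) against their start in kb from the first member, in order along the chromosome, for adult, LAP+, LAP+/OC2- and LAP+/OC2+ cells; points are means of 4 libraries, lines are 1 SD and stop at 0.003 where they would reach 0. The features at 230, 301, 330, 380, 405, 428, 817 and 2703 kb stand highest in LAP+/OC2+ cells, and those at 123 and 482 kb in adult cells. At 2795 kb the LAP+/OC2+ mean is also highest, with the LAP+/OC2- mean within 1 SD of it.

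Without those 3 abundant features, the other 37 members had a summed level of 203.5 ± 39.9 CPM (SD, n = 4) across LAP+/OC2+ libraries. The same sum was 17.4 ± 2.15 CPM for adult cells, 32.9 ± 16.6 CPM for LAP+ and 23.6 ± 2.96 CPM for LAP+/OC2-. The lowest LAP+/OC2+ library, at 165.3 CPM, lay above the highest library of any other sorted group, at 57.36 CPM. These sums include ENSRNOG00000053656 and the features at 163141132 and 163041141, with LAP+/OC2+ means of 42.55, 17.8 and 6.02 CPM. All 3 were tested only through the LAP+/OC2+ libraries. The members were also kept by counts in the libraries compared, so nothing is read from the separation. In bulk samples, fewer cells of a type and less RNA per cell cannot be told apart.

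Between the OC2 fractions, 5 of the 15 members were higher in LAP+/OC2+ than in LAP+/OC2- cells and 2 were lower, where 29.0% of the 13394 genes were higher and 37.8% lower. The share higher was near the background and the share lower was below it, and the 15 members' median log2 difference was -0.32, beside -0.23 over those genes. With the features at 163041141, 163141132 and 163628640 the count was 8 of 18 higher and 2 lower, beside 30.8% and 36.6% of all tested genes, and nothing is read from it. The 5 among the 15 start at 163112301, 163191503, 163216163, 163239849 and 165514530. Tested features at 163118452, 163162211, 163174487, 163293724 and 163393217 lie among or near them and were not higher. No clustering is read from these positions.

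ENSRNOG00000053656, at 163628640 to 163649637, was measured at 44.1, 71.9, 34.7 and 19.4 CPM in LAP+/OC2+ libraries 1 to 4. It had a single count among the 4 LAP+/OC2- libraries and a single count among the 4 adult libraries, against 856 counts in LAP+/OC2+. In the LAP+ libraries it stood at 0.154, 0, 0.265 and 3.31 CPM, so that LAP+ library 4 was above all LAP+/OC2- and adult libraries and below every LAP+/OC2+ library. As a ratio of counts scaled for library size, LAP+/OC2+ cells held 3030 times as much as LAP+/OC2- cells (exact 95% interval 542 to 120000, counting error only). The ratio to adult cells was 2190 (392 to 86500). ENSRNOG00000053656 was picked for its difference between fetal fractions, so these intervals describe counting error and are no test of a difference.

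ENSRNOG00000054251, at 163216163 to 163227334, showed 39.2, 57.0, 55.6 and 40.95 CPM in LAP+/OC2+ and 0.469, 0.0921, 0.169 and 1.28 CPM in LAP+/OC2- libraries. The fractions were separate, and the spread within LAP+/OC2+ was small beside the gap. The fitted log2 difference was 6.55 ± 1.16 (SE, adjusted p = 0.000165, edgeR), and adult libraries were at 0.300, 0.262, 0.264 and 0.0676 CPM. LAP+ libraries 1 to 3 were at 0.564, 0.309 and 0.689 CPM, and LAP+ library 4 at 16.6 CPM.

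ENSRNOG00000056219, the next feature along at 163239849 to 163261958, was the most even of the group in LAP+/OC2+ cells, with 18.8, 18.3, 19.6 and 21.4 CPM. LAP+/OC2- libraries were at 0.281, 0.507, 0.337 and 0.395 CPM, adult libraries at 0.150, 0, 0.264 and 0.0676 CPM. LAP+ libraries 1 to 3 lay between 0.265 and 0.769 CPM and library 4 at 7.57 CPM, again below LAP+/OC2+ and above the rest. ENSRNOG00000056219 rose in LAP+/OC2+ against LAP+/OC2- cells by 5.65 ± 0.82 on the log2 scale (SE, adjusted p = 1.58e-05, edgeR).

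ENSRNOG00000053638, at 163141132 to 163157744, gave 20.6, 26.1, 15.8 and 8.74 CPM in LAP+/OC2+ libraries and 0.141, 0.507, 0.0562 and 0.247 CPM in LAP+/OC2- libraries. In adult cells it had 1 count in library 1 and none in the other 3, and LAP+ libraries held 0.666, 0.309, 0.424 and 0.852 CPM. LAP+/OC2+ was separate from all 3 other groups. The mean level of ENSRNOG00000053638 in LAP+/OC2+ libraries was 17.8 ± 7.37 CPM (SD, n = 4). Scaled counts were 928 times those of adult cells (exact 95% interval 166 to 36800, counting error only). ENSRNOG00000053638 was tested only through the LAP+/OC2+ libraries, so the interval is no test of a difference.

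ENSRNOG00000054860, on the plus strand at 163112301 to 163126864, stood at 13.2, 14, 18.6 and 32.9 CPM across the LAP+/OC2+ libraries, while those of LAP+/OC2- had 0.469, 0.323, 0.450 and 0.445 CPM. The rise was 5.54 ± 0.62 (log2, SE, adjusted p = 7.94e-07, edgeR). A minus-strand member that starts at 163118452 lies inside its span, and whether the counting used strand is not given, so reads of the pair cannot be told apart. That neighbour was at 0.258 to 2.30 CPM in LAP+/OC2+ and 1.43 to 2.42 CPM in LAP+/OC2- libraries, and its log2 difference was -0.41 ± 0.38 (adjusted p = 0.354, edgeR).

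The remaining members with higher levels in LAP+/OC2+ than in LAP+/OC2- cells were less alike. The feature at 163041141 was at 3.35, 6.65, 6.85 and 7.25 CPM in LAP+/OC2+ and at most 0.371 CPM in any other sorted library. The feature at 163191503 was at 43.1, 40.8, 13.1 and 6.67 CPM in LAP+/OC2+ and at 1.22 to 3.64 CPM in LAP+/OC2- libraries, with similar levels in adult and LAP+ cells. ENSRNOG00000010316, at 165514530 to 165522418, was at 7.74, 12.1, 13.5 and 19.7 CPM in LAP+/OC2+ and at 4.95 to 7.55 CPM in LAP+/OC2- libraries. The rises at 163191503 and 165514530 were 3.47 and 1.14 on the log2 scale, with SE 0.50 and 0.24 and adjusted p of 1.32e-05 and 0.00042 in edgeR's test.

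The LAP+/OC2+ libraries differed in more than their level. Of the 9 members higher than in adult cells, those at 163628640, 163141132 and 163191503 were lowest in library 4, which had the smallest mitochondrial share at 38.9%. Those at 163041141, 163112301, 163239849, 165514530 and 165606819 were highest there. Whether the mitochondrial share has a part in either pattern was not tested. With mitochondrial features left out before scaling, 8 of the 18 members were higher than in LAP+/OC2- cells and 2 lower, beside 4550 and 5068 of 14323 genes. The 8 include the features tested only through the LAP+/OC2+ libraries, so nothing is read from that count.

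Between and beside the rising features, others did not follow. The feature at 163162211, between the risers at 163141132 and 163191503, averaged 5.05 ± 2.93 CPM (SD, n = 4) over the LAP+/OC2+ and 6.67 ± 2.18 CPM over the LAP+/OC2- libraries, a log2 difference of -0.46 ± 0.42 (SE, adjusted p = 0.338, edgeR). The feature at 163174487 had 1 count in all LAP+/OC2+ libraries together and a mean of 0.590 CPM in LAP+/OC2- cells, and fell by 3.53 on the log2 scale (SE 0.86, adjusted p = 0.0016, edgeR), where a count of 0 allows more than 0.590 CPM in LAP+/OC2+ libraries 1 and 2. ENSRNOG00000053362, described above, was the other member that fell. Along the chromosome the calls thus alternated within short stretches.

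**Figure D2:**
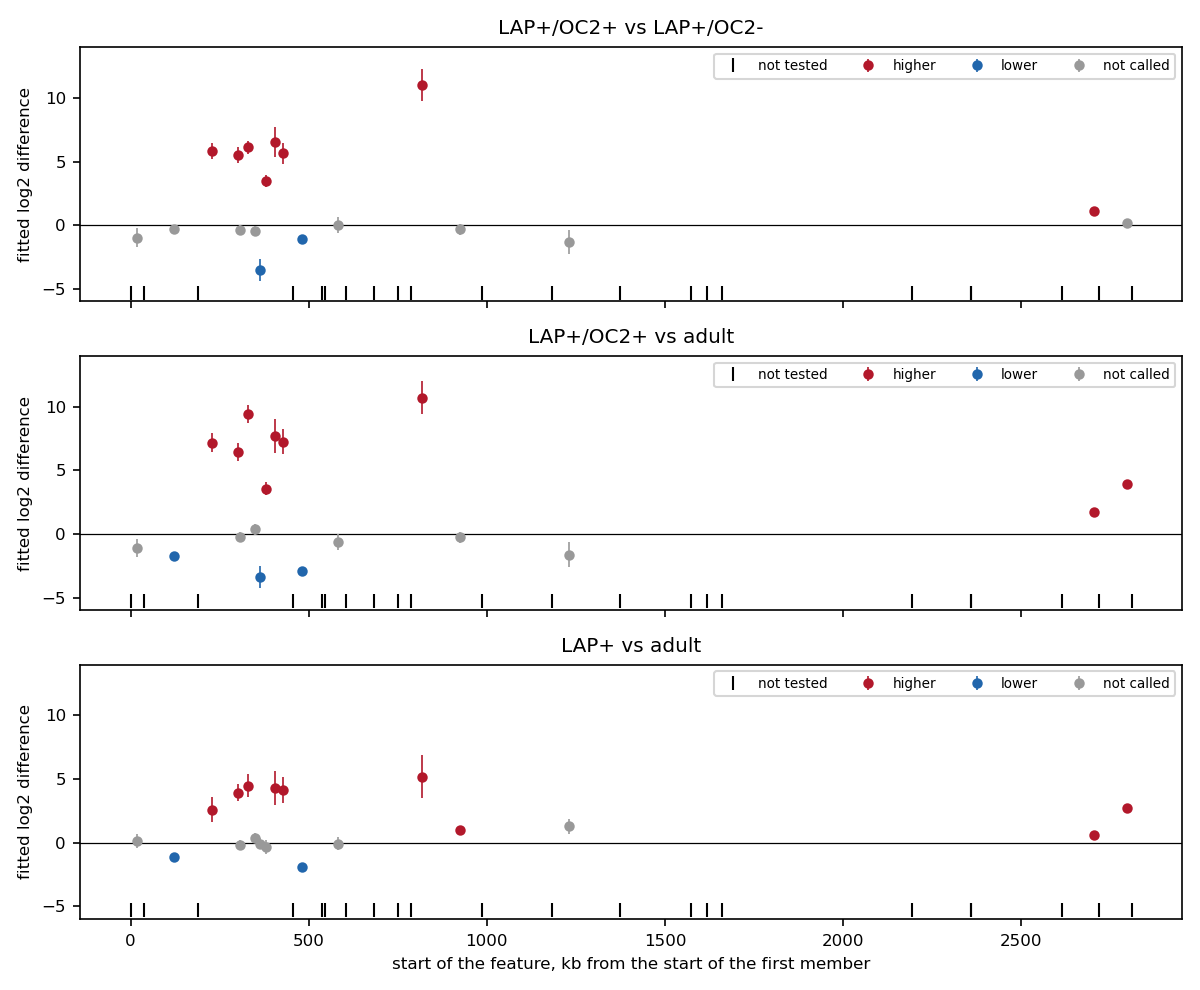
Fitted log2 difference (points, with 1 SE as lines) of the 18 tested members against their start in kb from the first member, in 3 comparisons: LAP+/OC2+ against LAP+/OC2-, LAP+/OC2+ against adult, and LAP+ against adult; ticks at the bottom mark the 22 members not tested. Higher calls (red) lie between 230 and 428 kb in all 3 comparisons, next to lower (blue) and uncalled (grey) features. Others lie at 817 and 2703 kb in all 3, at 2795 kb in both comparisons with adult cells, and at 925 kb in LAP+ against adult. The points at 230, 330 and 817 kb are shown as fitted, since those features were tested only through the LAP+/OC2+ libraries.

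Against adult cells, 6 of the 15 members were higher in LAP+/OC2+ cells and 3 lower, beside 37.2% and 39.8% of the 13394 genes, with a median log2 difference of -0.25 for the members and -0.10 over those genes. The 6 were ENSRNOG00000005480 and the features at 163112301, 163191503, 163216163, 163239849 and 165514530. With the 3 features tested only through LAP+/OC2+ the count was 9 of 18, beside 38.9% higher and 38.6% lower over all tested genes. ENSRNOG00000054251 was 7.71 ± 1.32 higher (log2, SE, adjusted p = 7.86e-05, edgeR) and ENSRNOG00000056219 7.26 ± 0.98 higher (adjusted p = 4.14e-06). For the feature at 163041141, with 2 adult counts in all, scaled counts were 187 times the adult ones (exact 95% interval 50.7 to 1560, counting error only). That feature is among those tested only through LAP+/OC2+, so the interval is no test of a difference. The features at 162934195, 163174487 and 163293724 were the 3 that fell.

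Against LAP+ cells, 6 of the 15 members were higher in LAP+/OC2+ cells and 4 lower, beside 30.3% and 37.0% of the 13394 genes, with medians of -0.11 for the members and -0.16 over those genes. The count over all 18 was 9 higher and 4 lower, beside 32.0% and 35.9%. The 6 were those that were higher against adult cells. ENSRNOG00000054251 was 3.40 ± 0.94 higher (log2, SE, adjusted p = 0.00538, edgeR) and the feature at 163112301 was 2.496 ± 0.51 higher (adjusted p = 0.0004), both smaller than the differences from LAP+/OC2- cells, with the high LAP+ library 4 among those compared. The features at 163736132 and 164042258 were lower here, with log2 differences of -1.24 (SE 0.42, adjusted p = 0.0157, edgeR) and -2.90 (SE 0.86, adjusted p = 0.00693). The call at 163736132 was lost without LAP+/OC2+ library 4 (adjusted p = 0.0543, edgeR) and with limma-voom (log2 -0.87, adjusted p = 0.102). These comparisons of LAP+/OC2+ cells share the same 4 libraries and are not independent of each other. The small medians of the 15 members depended on the setting: a stricter filter put them at 0.05, 0.04 and 0.40 against LAP+/OC2-, LAP+ and adult cells, and without adult library 3 the median against adult cells was 0.08.

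**Figure D3:**
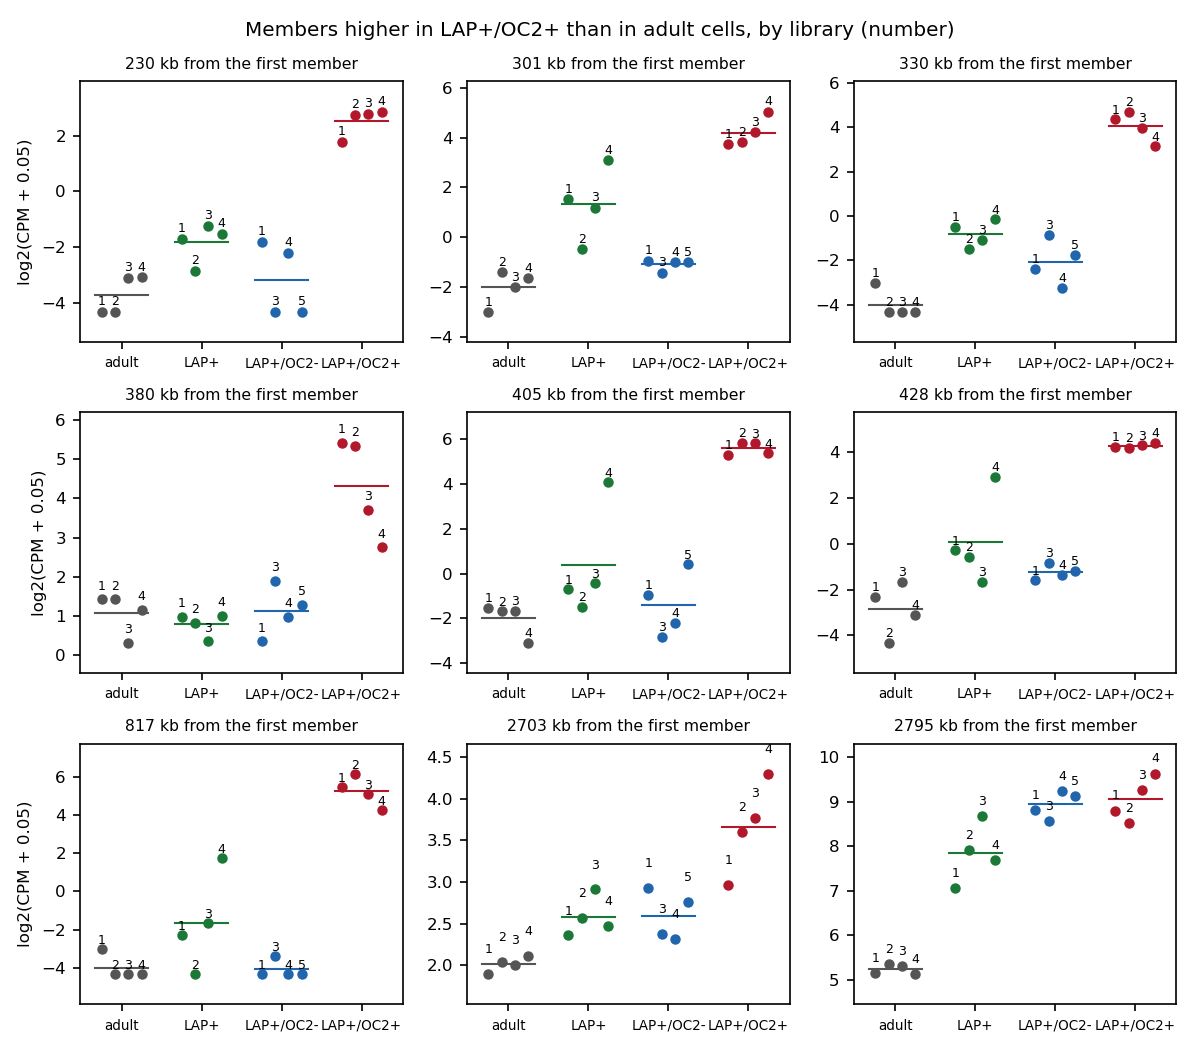
Level of each of the 9 members that were higher in LAP+/OC2+ than in adult cells, as log2(CPM + 0.05), in every sorted library; numbers beside the points are the library numbers, lines are group means and panels give the start in kb from the first member. LAP+ library 4 sits between its group and LAP+/OC2+ in the panels at 301, 405, 428 and 817 kb, and the 3 fetal groups lie above adult cells at 2795 kb.

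Among the 17 tested members other than ENSRNOG00000053656, 8 were higher in LAP+ than in adult cells and 2 lower, beside 31.7% and 28.5% of all tested genes. The median was 0.58 for the members and 0.06 over all. With 1 library left out the members' median ranged from 0.46 to 0.65. With no filter on low counts the median over all 40 members, ENSRNOG00000053656 included, was 0.13, beside 0.00 over all genes. ENSRNOG00000005480 and the features at 163112301 and 163141132 were among the 8, with log2 rises of 2.72, 3.94 and 4.49 (SE 0.31, 0.70 and 0.93) and adjusted p of 1.09e-06, 0.000131 and 0.000538 in edgeR's test. ENSRNOG00000056219 rose by 4.18 ± 1.02 (SE, adjusted p = 0.00224, edgeR). The 2 that fell were ENSRNOG00000053362 and ENSRNOG00000059538.

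LAP+ library 4 stood apart for some of these features. ENSRNOG00000054251 was 29.49 times as high in library 4 as in the median of the other 3 LAP+ libraries, ENSRNOG00000053656 21.5 times, ENSRNOG00000056219 12.25 times, ENSRNOG00000054860 3.78 times and ENSRNOG00000053638 2.01 times. The feature at 163041141, also higher in LAP+/OC2+, was 1.17 times as high there, and that at 163191503 was 1.14 times as high. Counted with ENSRNOG00000053656, 9 members were higher in LAP+ than in adult cells. The count was 5 without LAP+ library 4, and 6 without LAP+ library 3, adult library 1 or adult library 2. The shares of all tested genes called with 1 library left out are not given here, so nothing is read from the lower counts. Of the 4 calls lost without LAP+ library 4, those at 163041141 (adjusted p = 0.0501, edgeR) and 165514530 (0.0532, 0.94 times the median of the others in library 4) were of features not high there. Without it ENSRNOG00000054251 had a log2 difference of 1.18 with an adjusted p = 0.172 in edgeR's test. The mitochondrial share of library 4, at 4.69%, lay within the 4.11% to 6.42% of the other LAP+ libraries.

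LAP+/OC2- cells had 3 of those 17 members higher than adult cells and 2 lower, beside 30.9% and 28.4% of all tested genes, with medians of 0.16 and 0.06. Without adult library 3 the members' median was 0.43. The 3 were ENSRNOG00000005480, ENSRNOG00000010316 at 0.61 ± 0.24 (log2, SE, adjusted p = 0.035, edgeR) and the feature at 163141132 at 3.32 ± 1.06 (adjusted p = 0.0126), which had 20 counts in LAP+/OC2- and 1 in adult cells. The call of ENSRNOG00000010316 was lost in 8 of 23 alternative settings. Beside ENSRNOG00000053656, 5 other features between 163041141 and 163628640 that were higher in LAP+/OC2+ cells did not pass the test between LAP+/OC2- and adult cells, at levels of at most 3.64 CPM in any LAP+/OC2- library.

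Between LAP+/OC2- and LAP+ cells, none of the 17 members was higher and 1 was lower, beside 0.246% and 0.145% of all tested genes, with medians of -0.35 for the members and 0.00 over all. The members' median ranged from -0.66 without LAP+/OC2- library 4 to -0.12 without LAP+/OC2- library 1. With no filter on low counts it was 0.00. By an unadjusted p under 0.05 in edgeR's test 7 of the 17 differed, where 6.62% of all tested genes did. Those at 163112301, 163216163, 163239849 and 163141132 were 3.78, 29.49, 12.25 and 2.01 times as high in LAP+ library 4 as in the median of the other LAP+ libraries. The rest, at 163736132, 164042258 and 165606819, were 0.87, 1.89 and 0.86 times as high. The feature at 163141132 was also tested only through LAP+/OC2+. How far the 7 rest on LAP+ library 4 was not tested. The member that fell was ENSRNOG00000054860, with LAP+ libraries at 2.82, 0.662, 2.23 and 8.42 CPM and all LAP+/OC2- libraries at or below 0.469 CPM. Its log2 difference was -3.04 ± 0.60 (SE, adjusted p = 0.0299, edgeR). That call was lost without LAP+ library 1 (adjusted p = 0.0522), without LAP+ library 4 (0.0908) and without any single LAP+/OC2- library (0.111 to 0.119).

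After transplantation, 34 members passed the filter and 6 did not, out of 22303 genes tested, and the members carried counts in 34 to 39 features in every tissue library but the host library of animal 248, where 27 had one. Summed over the members, colony tissue held 301.0 ± 29.7 CPM and host tissue 324.1 ± 24.7 CPM (SD, n = 5). With nuclear counts as the denominator, colony tissue held 330.9 ± 22.85 CPM and host tissue 300.0 ± 38.78 CPM (SD). The order was thus reversed, and colony and host libraries overlapped with either denominator, so no difference is read from the sums. ENSRNOG00000053362 was at 96.6, 148, 127, 74.4 and 112 CPM in the colonies of animals 242, 243, 246, 248 and 249 and at 123, 130, 132, 94.4 and 120 CPM in their host tissue. The groups overlapped, with a log2 difference of -0.13 ± 0.12 (SE, adjusted p = 0.560, edgeR with the animal as a block).

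ENSRNOG00000005480, which separated fetal from adult cells before transplantation, was at 14.2, 23.3, 20.7, 19.3 and 20.1 CPM in the colonies. Host tissue of the same animals had 23.1, 24.5, 19.9, 9.99 and 25.4 CPM. Colony was higher in 2 of 5 animals, and the log2 difference was -0.04 ± 0.18 (SE, adjusted p = 0.921, edgeR). ENSRNOG00000053656 was near the limit of detection, at 0.858, 0.466, 0.229, 0 and 1.11 CPM in colonies and 0.215, 0.145, 0.268, 0 and 0.448 CPM in host tissue, with a log2 difference of 1.16 ± 1.25 (adjusted p = 0.618). The tissue levels of these features were not set against the sorted cells.

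No member passed the test between colony and host, beside 0.565% of all tested genes higher and 0.610% lower in colony tissue. By an unadjusted p under 0.05 in edgeR's test 5 of the 34 differed, where 19% of all tested genes did. DESeq2 called 0 members, beside 327 genes higher and 355 lower of the 22303 tested. By limma-voom 3 members were higher and 1 lower, beside 8.15% and 6.22% of all tested genes. These counts are near or below the background. The fitted difference was above 0 for 25 of the 34 members, with a median of 0.44, beside 0.11 over all tested genes, and without animal 248 it was above 0 for 24 of 34, with medians of 0.51 and 0.04. ENSRNOG00000059538 came nearest among the abundant members, at 74.7, 107, 122, 117 and 80.0 CPM in colonies against 134, 139, 120, 164 and 86.9 CPM in host tissue, lower in colony in 4 of 5 animals. Its log2 difference was -0.36 ± 0.13 (SE, adjusted p = 0.121, edgeR), and without animal 246 it was -0.46 with an adjusted p = 0.0105.

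The other 4 with an unadjusted p under 0.05 were at low levels and higher in colony tissue in 4 of 5 animals each. The feature at 163561966 was at 1.12, 0.933, 1.07, 0.886 and 1.11 CPM in the colonies and at 0.108, 0.145, 1.43, 0 and 0 CPM in host tissue, so that animal 246 ran the other way. The feature at 165169065 averaged 3.30 ± 0.87 CPM in colony and 1.61 ± 1.03 CPM in host tissue (SD, n = 5), that at 163162211 2.47 ± 1.65 and 1.18 ± 1.29 CPM, and that at 162850192 2.22 ± 0.98 and 0.97 ± 0.89 CPM. Their adjusted p-values in edgeR's test were 0.187, 0.175, 0.207 and 0.261. The feature at 164470397, from 0.915 to 2.11 CPM in colony and 0 to 0.893 CPM in host tissue, was the 1 tested member of 34 whose groups did not overlap, where 2.84% of all tested genes did not, and its adjusted p was 0.388.

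**Figure D4:**
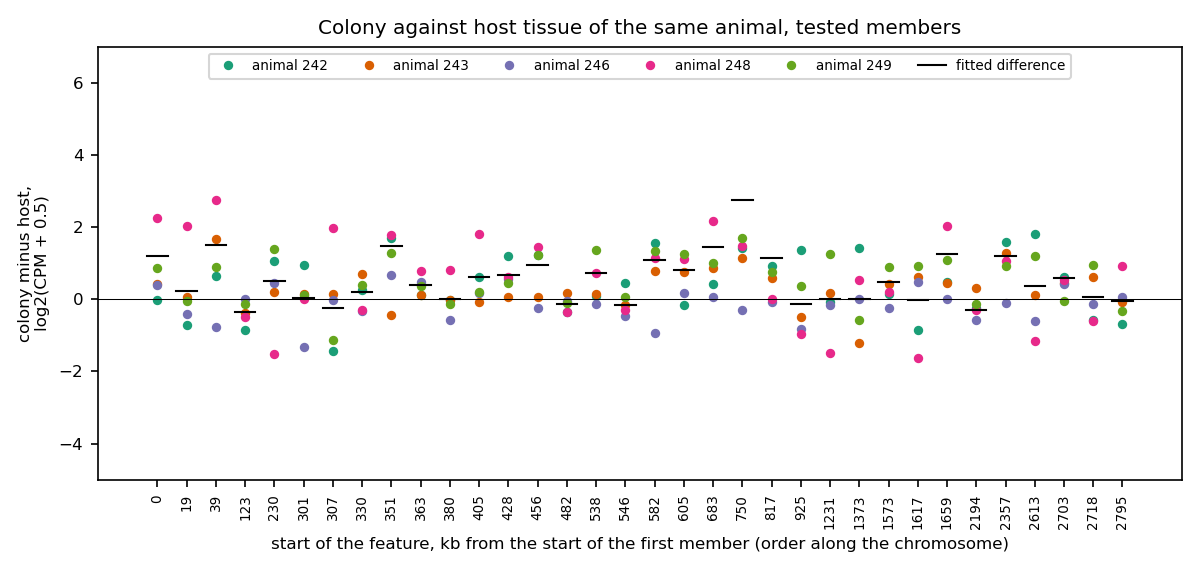
Colony minus host of the same animal for the 34 members tested in tissue, as the difference of log2(CPM + 0.5), in order along the chromosome and labelled by start in kb from the first member; coloured points are the 5 animals and black lines the fitted difference. The animals lie on both sides of 0 for most members, and the fitted line lies above 0 for 25 of 34; at low levels it can lie beyond all points, since the points carry the added 0.5 CPM.

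Other members were measured in tissue at moderate levels. The feature at 163174487 was at 10.4 to 12.7 CPM in colonies and 7.12 to 10.8 CPM in host tissue, and was higher in colony in all 5 animals with a log2 difference of 0.39 ± 0.21 (SE, adjusted p = 0.303, edgeR). The feature at 163191503 was at 9.19 ± 1.38 CPM in colony and 9.26 ± 2.30 CPM in host tissue (SD, n = 5). ENSRNOG00000054251 was at 3.03 ± 1.53 and 1.81 ± 0.40 CPM, with the highest value, 5.76 CPM, in the colony of animal 248. None of these passed the test between colony and host.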

How the data were processed

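RNA was sequenced in 16 libraries of sorted hepatocytes (NEBNext Ultra kit) and 10 of laser-captured liver (SMARTer Pico kit), per the labels' protocols. The deposited files hold raw counts per feature with exon coordinates, per the file headers; the submitters' processing notes name STAR 2.5.2b, Subread 1.5.2 with its featureCounts, Trimmomatic 0.36 and bcl2fastq 2.17. The sources used here give no genome build, annotation or strand setting. Members and lists were chosen with earlier results of these data known. Counts were fitted with edgeR 4.0.16 (TMM, filterByExpr, robust quasi-likelihood test, Benjamini-Hochberg over all genes tested) in R 4.3.3, with group means for the sorted cells and the animal as a block in tissue, since colony and host share animals. Marker and receptor lists could not be applied, because no identifier matched a symbol. Features named by identifier are ENSRNOG00000053656 and, per comparison, up to 2 rises and 2 falls with an adjusted p under 0.05, groups that do not overlap and 1 CPM or more in the higher one; others go by position. Same-numbered sorted libraries did not deviate together (r from -0.402 to 0.189). Alternatives were RLE scaling, other filters, no mitochondrial features, DESeq2 1.42.0, limma-voom (limma 3.58.1), a replicate block, each library left out, nuclear counts as the denominator, and other sets of members. The fit was tested on simulated counts. Intervals and limits of detection cover counting error only.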

Additional observations from a re-analysis of the deposited data

Results flagged for a closer look

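Among the 84 groups of 4 or 5 libraries examined over 14 features, 17 had 1 library far from the rest of its group. The limit used is passed by about 1 in 20 groups of normally distributed values. Levels from few counts do not have that shape, so no excess over chance is read from the 17. LAP+ library 4 was high for ENSRNOG00000054251 at 16.63 CPM, for ENSRNOG00000056219 at 7.565 CPM and for ENSRNOG00000053656 at 3.306 CPM. Among tissue of animal 248, host was high at 163141132 (5.44 CPM) and at 163736132 (10.09 CPM) and low at 163191503 (5.342 CPM), and colony was high for ENSRNOG00000054251 (5.759 CPM). LAP+/OC2- library 1 was low for ENSRNOG00000059538 at 22.42 CPM. LAP+/OC2+ library 1 was low at 163041141 with 3.354 CPM, and LAP+/OC2- library 3 was low for ENSRNOG00000054860 with 0.3225 CPM. LAP+/OC2+ library 3 was high at 163736132 with 1.794 CPM. Adult library 4 was low for ENSRNOG00000054251 at 0.06763 CPM. The other 5 rest on groups where every other library had no count. Adult library 1 stood at 0.07498 CPM for both ENSRNOG00000053638 and ENSRNOG00000053656, LAP+/OC2- library 3 at 0.04607 CPM for ENSRNOG00000053656, LAP+/OC2+ library 3 at 0.1631 CPM for the feature at 163174487 and LAP+/OC2+ library 4 at 0.3451 CPM for the feature at 164042258.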

How the results depend on the processing

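Over all 18 tested members, the counts called between LAP+/OC2+ cells and each other sorted group stayed within 1.5 times in most alternatives run. The exceptions were as follows. A stricter filter tested 16 members and left 1 lower against LAP+/OC2- and 2 lower against LAP+, beside 4851 and 4765 of 13105 genes. The 15 members that pass the filter without LAP+/OC2+, an alternative chosen after seeing the data, gave 5 higher against LAP+/OC2- in place of 8. For LAP+ against adult cells, no filter gave 4 of 40 members lower, beside 3936 of 23217 genes. Counted with ENSRNOG00000053656, leaving out 1 library gave 5 to 10 higher, the 5 without LAP+ library 4. For LAP+/OC2- against LAP+, DESeq2 and limma-voom gave 1 higher and 2 lower. The lower call added by DESeq2 was ENSRNOG00000053656, which is left out of the main count, so nothing is read from it. The lower call added by limma-voom was the feature at 164042258. Over all 13818 genes DESeq2 called 105 higher and 103 lower and limma-voom 121 and 62, against 34 and 20 in the main fit. No filter gave 0 members lower, beside 20 of 23217 genes. Leaving out 1 library gave 0 to 1 higher and 0 to 1 lower, and the 1 higher came without LAP+ library 3. For colony against host, limma-voom gave 3 higher and 1 lower, and leaving out 1 animal gave 0 to 1 lower, the 1 without animal 246. The cause of these changes was not tested, apart from the features and libraries left out. For the counts with 1 library or animal left out, the shares of all tested genes are not given here. Nothing is read from those counts. With a replicate block, LAP+ against adult cells had 8 higher, ENSRNOG00000053656 among them, beside 4279 of 15297 genes. LAP+/OC2+ against LAP+/OC2- had 8 higher and 2 lower, beside 4042 and 4953 genes. The 8 include the features tested only through the LAP+/OC2+ libraries, so nothing is read from that count. Without the block for the animal, colony against host had 0 and 0. None of the 22303 genes tested was called in that setting, so it says nothing about the members. The block lost the call of ENSRNOG00000010316 in LAP+/OC2- against adult cells (log2 0.55). RLE scaling moved the median of all genes from -0.18 to -0.05 between the OC2 fractions and from -0.10 to 0.01 for LAP+/OC2+ against LAP+. With nuclear counts as the denominator, the members summed to 1505 CPM across LAP+/OC2+ libraries, against 814.3 CPM for LAP+/OC2-. Depth limits low members most in LAP+/OC2+ libraries.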
